A study of Mus musculus with 47 samples.

Results

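The Myc, Max and Mxd network was followed at the RNA level through 10 of its genes, Myc, Mycn, Mycl, Max, Mnt, Mxd1, Mxd3, Mxd4, Mlx and Mga. Members were found as the 3′ UTR rows whose RefSeq mRNA name belongs to one of these genes. This gave 18 rows, which fall on 10 distinct 3′ UTRs, 1 for each gene, out of 20737 distinct mRNA 3′ UTRs of 18804 named genes. The rule uses gene names alone.

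MYC, MYCN and MYCL are transcription factors that bind DNA as heterodimers with MAX, mostly at E-box sequences, and activate genes for growth, ribosome production and cell division. MXD1, MXD3, MXD4, MNT and MGA compete for the same partner and the same sites, and recruit repressor complexes there. MLX is a MAX-like protein that pairs with MNT, some MXD proteins and the glucose-sensing MondoA and ChREBP factors. MYCN is known for its role in neural progenitors, and MXD proteins are known to accumulate when cells leave the cycle.

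The libraries came from P19 cells, a mouse embryonal carcinoma line bought from a cell bank. Undifferentiated cells at day 0 (D0) were compared with cells at day 6 (D6) of neuronal differentiation in NDiff 227 medium with 500 nM retinoic acid. Per the study's methods, undifferentiated cells were kept in Dulbecco's modified Eagle medium with fetal bovine serum, so medium and state change together. RNA was labeled with 4-thiouridine (4sU), which reads as T-to-C conversions in SLAM-seq, by sequencing of 3′ ends. In the anabolic assay, RNA was taken during uptake of 4sU, and in the catabolic assay during a chase with UTP after 15 h of 4sU. Each assay had 4 time points (T0, T1, T3 and T9), labeled 0, 1, 3 and 9 h in the sample names, whereas the study's methods give 0, 3, 6 and 9 h. Groups held 3 libraries each, but 2 for the D6 chase at T3, which makes 24 libraries at D0 and 23 at D6. The 4sU dose was 20 µM at D0 and 500 µM at D6, so dose and state cannot be told apart in a conversion rate. The study calls its replicates biological, but nothing in the labels says that libraries of a group came from separate cultures. If they did not, p-values measure the spread between libraries, which may be technical.

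Libraries held between 1489528 and 11677046 reads in 3′ UTRs, with a median of 5750402. The D6 libraries were shallower, and all 4 libraries with fewer than 2000000 reads were D6 libraries (anabolic T1 replicate 40, anabolic T9 replicate 53 and catabolic T3 replicates 14 and 15). The shallowest, catabolic T3 replicate 14, had reads in 7385 of the 3′ UTRs. The summed level of 11 neuron markers was 896 to 1217 CPM (reads scaled to the total of the library) at D0. At D6 it was 8373 to 11669 CPM. Of these, 9 of 11 were called higher at D6 without 4sU and 11 of 11 in the other libraries, beside 7.08% and 19.3% of all 3′ UTRs tested. The summed level of 11 markers of undifferentiated cells was 1751 to 3155 CPM at D0 and 373 to 914 CPM at D6. Of those tested, 4 of 6 were lower without 4sU, and 7 of 8 were lower and 1 higher in the other libraries. The shares of all 3′ UTRs that were lower were 5.19% and 26.7%. Zfp42 and Dppa5a had no read in either state. The summed level of 9 neural progenitor markers ranged from 487 to 1334 CPM at D0 and from 1333 to 3115 CPM at D6. The summed level of 7 glia markers was 4.36 to 65.6 CPM at D0 and 0 to 174 CPM at D6, and Aqp4 had no read. The summed level of 13 mesoderm, endoderm and muscle markers was 76.7 to 137 CPM at D0 and 0.336 to 56.1 CPM at D6, with 7 of the 13 at 0 in every D6 library. These shifts move with every D6 against D0 difference given here, and their part in it was not tested. In bulk RNA, fewer cells of a type and less RNA per cell cannot be told apart.

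Sequence was read for all 10 member 3′ UTRs (GRCm38, the build of the files) to show the AU-rich pentamer AUUUA, a motif known from short-lived mRNAs. The pentamer, searched as ATTTA on the sense strand with overlaps counted, was found in 8 of the 10, while 69.0% of 7131 well covered 3′ UTRs hold it. Among 3′ UTRs of similar length the share that hold it rose with length, from 45.4% for Mxd4 and 46.9% for Myc to 97.7% for Mxd1 and 98.9% for Mga. Mxd3 and Mxd4 had none, Mycn, Max and Mnt had 1 each, Myc, Mycl and Mlx had 2 each, and Mxd1 and Mga had 5 each. Per length, Myc had the most, with 4.42 per kb in a 3′ UTR of 453 bases, against a median of 1.34 per kb. The longer motif TTATTTATT was in none of the 10 and in 7.50% of the well covered 3′ UTRs. The windows of the 3 MYC-family mRNAs are shown with the pentamer in capitals, since these are the mRNAs whose levels are compared first.
Myc, chr15:61990135-61990163, plus strand: uaacagauuuguAUUUAauuguuuuuuua
Myc, chr15:61990272-61990300, plus strand: auaauuuuuuuuAUUUAaagacauuuuca
Mycn, chr12:12936149-12936177, minus strand: caaaauguauauAUUUAgugcugcaccuu
Mycl, chr4:123002375-123002403, plus strand: uuugaaaggugcAUUUAccugaaauuuug
Mycl, chr4:123002393-123002421, plus strand: cugaaauuuuguAUUUAguuguaaucauu
The pentamers of Mycn and Mycl and the later one of Myc lie 68 to 94 bases before the annotated 3′ end. The earlier one of Myc lies 210 bases before it. A match describes the letters in the window and no more.

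The E-box CACGTG, the preferred site of MYC-MAX and MXD-MAX dimers, was looked for in the promoters of 9 members (250 bases before to 50 after the gene start, RefSeq, GRCm38.p6). It reads the same on both strands. It occurred once each in Max, Mnt, Mxd4 and Mlx and not in the windows of Mycn, Mycl, Mxd1, Mxd3 and Mga, while 7.15% of 32851 promoters hold it. The 4 sites are shown with the E-box in capitals, since they lie in the promoters of MAX itself and of proteins that share its E-box.
Max, chr12:76962234-76962263, minus strand: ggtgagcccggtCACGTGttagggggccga
Mnt, chr11:74830789-74830818, plus strand: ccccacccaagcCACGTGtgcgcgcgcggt
Mxd4, chr5:34187912-34187941, minus strand: gggctgggccacCACGTGctgttgctaagc
Mlx, chr11:101087238-101087267, plus strand: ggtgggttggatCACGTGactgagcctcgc

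The first question was how the mRNA levels of the network differed between D0 and D6. Mycl was called higher at D6 both without 4sU and in the libraries that had 4sU or a chase. Mycn was called lower, and the repressor genes Mxd1, Mxd3 and Mxd4 higher, only with 4sU or a chase. The repressor genes Mnt and Mga, Max, Mlx and Myc did not pass the test. In the 41 libraries that had 4sU or a chase, 5 of 10 members passed an adjusted p of 0.05 by edgeR's quasi-likelihood test, 4 higher and 1 lower. Over all 13214 3′ UTRs tested there, 46.0% passed, 19.3% higher and 26.7% lower, so the share of members called is near the background. In the 6 libraries without 4sU, 1 of 9 members tested passed, against 12.3% of 11055 3′ UTRs. These comparisons share no library. In the 41 libraries the 4sU dose was 20 µM at D0 and 500 µM at D6, so dose and state cannot be told apart there.

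**Figure D1:**
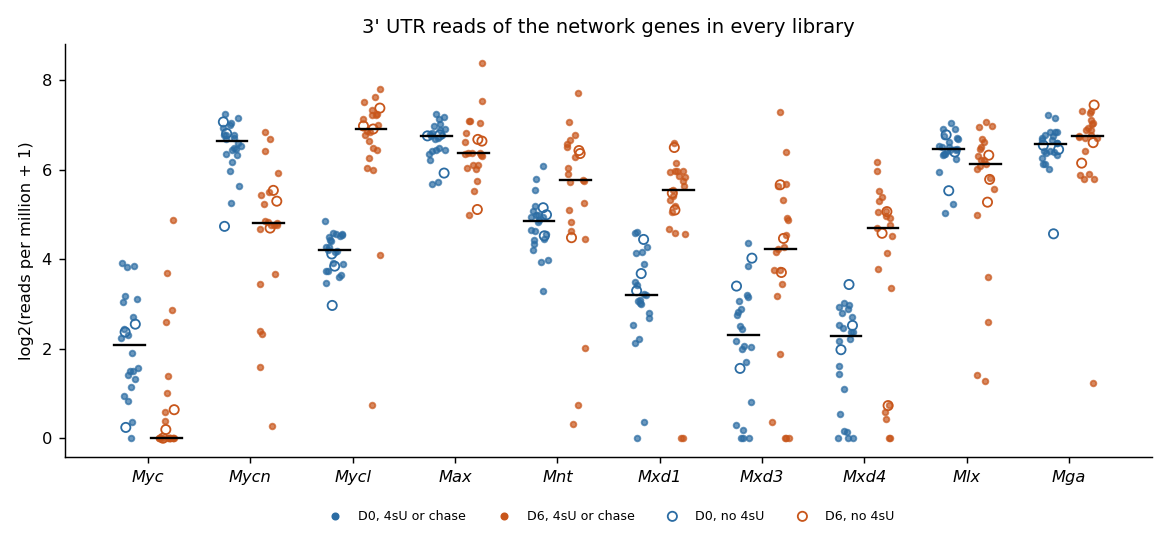
Reads scaled to library size (CPM) of each 3′ UTR in every library, as log2(CPM + 1), for the 10 genes at D0 (blue) and D6 (orange). Open circles are libraries without 4sU, filled points the other libraries and black bars the median of each state. The points of Mycl lie mostly above D0 at D6, those of Mycn mostly below, and those of Myc sit at 0 in 13 of 23 D6 libraries.

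Mycn, the MYC-family gene with the most reads at D0, had 111, 25.6 and 133 CPM in the 3 D0 libraries without 4sU and 38.3, 45.5 and 24.9 CPM in the 3 at D6. The D0 replicate 56 was the low one and overlapped the D6 libraries. Its difference was −1.22 ± 0.60 on the log2 scale (standard error) and did not pass (adjusted p = 0.241). Without replicate 56 it was −1.64 with an adjusted p of 0.0362. Outside these libraries Mycn had a lowest, median and highest level of 37, 96.7 and 151 CPM at D0 (n = 21) and of 0.212, 26.7 and 114 CPM at D6 (n = 20). Of the 20 D6 libraries, 14 lay below every D0 library. There Mycn fell by 1.46 on the log2 scale, with a standard error of 0.35 and an edgeR adjusted p of 5.47e-04.

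Mycl, which encodes another MYC-family activator, had 6.82, 16.4 and 13.4 CPM at D0 without 4sU and 165, 119 and 125 CPM at D6, with no overlap. Mycl rose by 3.49 ± 0.51 on the log2 scale (adjusted p = 0.00123, edgeR), the one member called in these 6 libraries. With 4sU or a chase it ran from 10.1 to 28 CPM with a median of 18.2 at D0, and from 0.671 to 222.5 CPM with a median of 115 at D6. There 18 of 20 D6 libraries lay above every D0 library, and the lowest was catabolic T3 replicate 14. The difference was 2.68 ± 0.29 (adjusted p = 2.80e-11).

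Myc itself was barely covered, with 718 reads over 24 D0 libraries and 161 reads over 23 D6 libraries. At D0 it reached at most 14 CPM, with a median of 3.25 CPM. At D6 no read was seen in 13 libraries, where a count of 0 allows up to 3 reads, or 0.378 to 2.01 CPM at the depths of the D6 libraries. A single D6 library, anabolic T1 replicate 40, gave 28.3 CPM, the highest Myc level of all. Myc was too low to be tested without 4sU. In the other libraries its difference was −2.33 ± 1.23 and did not pass by edgeR (adjusted p = 0.119), but did with DESeq2 (−2.34, adjusted p = 0.0158). The value was −3.29 with an adjusted p of 0.0125 without replicate 40, and −3.65 with 0.0174 without D6 anabolic T9 replicate 54.

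The MXD genes encode MAX partners that recruit the SIN3 corepressor. Mxd1 had 20.7, 11.8 and 8.82 CPM at D0 without 4sU and 89.4, 33.3 and 43.6 CPM at D6, so that the groups did not overlap. The difference was 2.04 ± 0.71 with an edgeR adjusted p of 0.0915, and DESeq2 gave 2.07 with 0.0251. The median of Mxd1 in the other libraries was 7.53 CPM at D0 and 47.1 CPM at D6, and 16 of 20 D6 libraries lay above every D0 library. Mxd1 rose there by 2.36 ± 0.50 (adjusted p = 9.56e-05).

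Mxd3, described in cells in S phase, had 1.95, 15.3 and 9.56 CPM at D0 without 4sU and 49.7, 21.1 and 12 CPM at D6, and the groups overlapped (1.60 ± 1.11, adjusted p = 0.453). In the other libraries its median was 3.51 CPM at D0 and 17.3 CPM at D6, with a highest value of 156 CPM in D6 anabolic T3 replicate 45. Only 8 of 20 D6 libraries lay above every D0 library. Mxd3 rose there by 2.64 ± 0.73 (adjusted p = 0.00236).

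Mxd4 had 4.73, 9.82 and 2.94 CPM at D0 without 4sU and 0.657, 32.5 and 22.9 CPM at D6, which overlapped (1.68 ± 1.46, adjusted p = 0.574). In the other libraries its median was 3.65 CPM at D0 and 25.5 CPM at D6, and 15 of 20 D6 libraries lay above every D0 library. It rose there by 2.74 ± 0.75 (adjusted p = 0.00194). Both genes had 0 reads in 2 or 3 libraries of each state in that comparison.

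Mnt, the most widely expressed MAX-binding repressor, had 22.0, 34.5 and 30.9 CPM at D0 without 4sU. At D6 it had 85.2, 81.3 and 21.4 CPM. The difference of 1.12 ± 0.65 did not pass (adjusted p = 0.338). In the other libraries it was 0.92 ± 0.40, just above the threshold (edgeR adjusted p = 0.0562). It passed with DESeq2 (0.0111), with RLE scaling (0.0392) and without any one of 10 libraries, with the smallest adjusted p without D6 catabolic T3 replicate 14 (0.0113).

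Max, the shared partner, had 107, 59.8 and 109 CPM at D0 without 4sU and 98.8, 33.6 and 102 CPM at D6. The log2 difference was −0.19 ± 0.47 there and 0.02 ± 0.21 in the other libraries, with edgeR adjusted p of 0.873 and 0.940. The sign of the second value turned in 9 of 41 fits that left out 1 library. Mlx differed by −0.41 ± 0.48 and −0.45 ± 0.32, and Mga, the scaffold of a MAX-binding polycomb complex, by 0.83 ± 0.53 and 0.12 ± 0.23. None of these 3 genes passed in either comparison, with edgeR adjusted p between 0.253 and 0.940.

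The 4 shallow D6 libraries were left out together in a further fit. Mycn (−1.75), Mycl (2.72), Mxd1 (2.56), Mxd3 (2.60) and Mxd4 (3.18) passed again. Myc (−2.90, adjusted p = 0.0326) and Mnt (1.00, adjusted p = 0.0108) passed in addition, which made 7 of 10 members, where 47.6% of all 3′ UTRs passed in that fit. The median over all 3′ UTRs was −0.25 on the log2 scale in the main fit of these libraries and −0.19 with RLE scaling. Read against that shift, differences are larger by as much for genes above 0. They are smaller by as much for Mycn, Myc and Mlx, which lie below it.

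**Figure D2:**
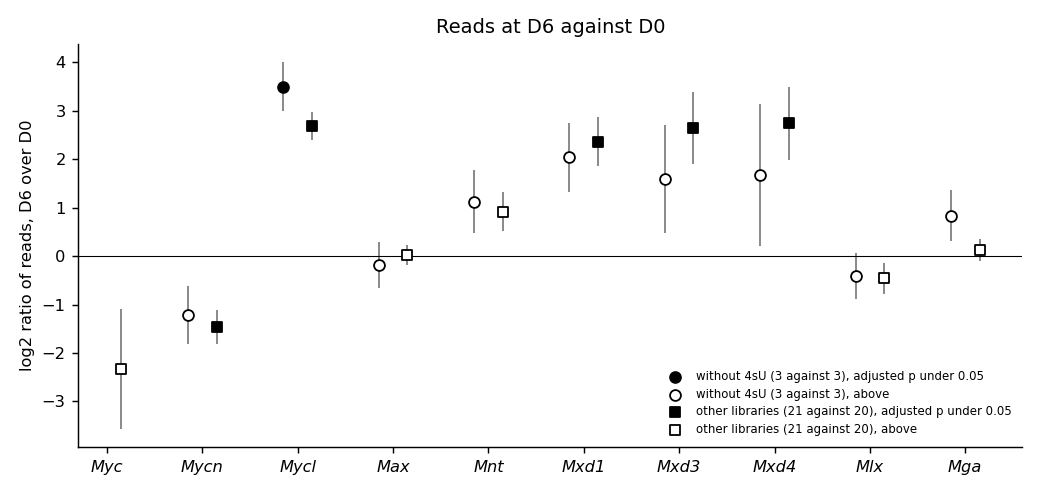
Log2 ratio of reads at D6 over D0 for each member, from the libraries without 4sU (circles, 3 against 3) and from the other libraries (squares, 21 against 20), with bars of 1 standard error. Filled symbols passed an adjusted p of 0.05 by edgeR. Mycl lies above 0 in both, Mycn below, and Max and Mlx near 0. Myc has no circle because it was too low to be tested.

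Reads after 15 h of 4sU were set against reads without it, to see whether the labeling itself moved these mRNAs. At D0, 0 of 10 members passed by edgeR, against 0.0328% of 12177 3′ UTRs, and DESeq2 called 0, against 0.567%. By edgeR 0 members had an unadjusted p under 0.05. The same counts of 0 members held at D6, against 0.0328% by edgeR and 0.657% by DESeq2. Log2 differences of the members ran from −0.71 (Mxd1) to 1.58 (Myc) at D0, and from −3.41 (Myc) to 0.83 (Mxd4) at D6. Their standard errors ran from 0.465 (Mga, D6) to 2.63 (Myc, D0), so counts of 0 cannot show that the labeling left these mRNAs unmoved. The assay and the 4sU change together in this comparison.

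The other parts of the pathway were read from lists of genes. Among MYC target genes, 74 of 75 were in the files. Without 4sU, 32 of 69 tested were lower at D6 and 1 was higher, where 5.19% of all 3′ UTRs were lower and 7.08% higher. The list's median was −1.53 on the log2 scale, beside −0.05 over all 3′ UTRs. In the other libraries 61 of 72 were lower and 1 higher, with a median of −1.52. Over all 3′ UTRs there, 26.7% were lower and 19.3% higher, with a median of −0.25. Srm, spermidine synthase, fell from 399 ± 51.4 to 42.6 ± 9.56 CPM (SD, n = 3 each; adjusted p = 1.51e-04, edgeR). Npm1, the nucleolar chaperone nucleophosmin, fell from 1226 ± 252 to 314 ± 61.7 CPM (SD, n = 3 each; adjusted p = 6.16e-04, edgeR). Ccnd1, cyclin D1, was the one that rose, from 136 ± 44.2 to 302 ± 42.1 CPM (SD, n = 3 each; adjusted p = 0.0246, edgeR). E2f1, a cell cycle factor, had a log2 difference of 0.41 ± 0.40 (adjusted p = 0.627).

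Of 12 cell cycle genes, 1 fell without 4sU and 10 in the other libraries, beside 5.19% and 26.7% of all 3′ UTRs. For the lists that follow, the shares of all 3′ UTRs that rose and fell were 7.08% and 5.19% without 4sU and 19.3% and 26.7% in the other libraries. Mcm3, a subunit of the replicative helicase, fell from 234 ± 22.7 to 52.5 ± 16.8 CPM (SD, n = 3 each; adjusted p = 0.00321, edgeR). Mcm6 had a log2 difference of −1.29 ± 0.38 (adjusted p = 0.0510), and Mki67, the only one with a positive value, 0.24 ± 1.31 (adjusted p = 0.940). Of genes that MYC represses with MIZ1, 1 of 6 tested rose without 4sU, and in the other libraries 4 of 9 rose and 2 fell. Cdkn1b, the cyclin-dependent kinase inhibitor p27, rose from 127 ± 53.8 to 372 ± 146 CPM (SD, n = 3 each; adjusted p = 0.0174, edgeR). Ddit3 (2.54 ± 1.16, adjusted p = 0.208), Cebpa (−0.58 ± 1.69, adjusted p = 0.889) and Ndrg2 (−0.21 ± 1.77, adjusted p = 0.964) did not pass without 4sU.

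Of 12 tested MYC and MAX coactivators and 17 tested corepressors of MXD, MNT and MGA, 0 passed without 4sU by edgeR. With 4sU or a chase, 1 coactivator was higher and 4 lower of 12, and 2 corepressors were higher and 5 lower of 18. The smallest p among the coactivators without 4sU belonged to Ep300 (0.55 ± 0.39) and Kat5 (0.39 ± 0.45), both acetyltransferases, among positive values, and to Hcfc1 (−0.90 ± 0.36) and Wdr5 (−0.98 ± 0.39) among negative ones. Among the corepressors they belonged to Hdac2 (0.84 ± 0.32), a histone deacetylase, Rnf2 (0.27 ± 0.30), a polycomb ubiquitin ligase, Wdr5 again and Rbbp7 (−0.85 ± 0.47), a histone-binding subunit. Unadjusted p under 0.05 were those of Hcfc1 (0.0300), Wdr5 (0.0310) and Hdac2 (0.0252). Of these 7 genes, Hdac2 and Rnf2 rose and Hcfc1, Wdr5 and Rbbp7 fell in the other libraries.

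Of 6 tested network partners outside the 10 members, 0 passed without 4sU by edgeR, and in the other libraries 1 rose and 1 fell. These were Mxi1, a further MXD-type repressor (1.33 ± 0.46, adjusted p = 0.0159), and Tcfl5 (−2.17 ± 0.48, adjusted p = 1.57e-04). Zbtb17, which encodes MIZ1, had 0.57 ± 0.57 and Usf2, another E-box binder, −0.77 ± 0.30 without 4sU, and neither passed, and unadjusted p under 0.05 were those of Tcfl5 (0.0235) and Usf2 (0.0263).

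Of 16 regulators of MYC protein turnover, 2 rose and 2 fell without 4sU, and in the other libraries 2 rose and 8 fell. Gsk3b, the kinase that marks MYC for degradation, rose from 327 ± 52.6 to 1369.5 ± 69.99 CPM (SD, n = 3 each; adjusted p = 4.52e-04, edgeR). Fbxo32, a ubiquitin ligase subunit, rose from 2.30 ± 2.81 to 55.3 ± 17.4 CPM (SD, n = 3 each; adjusted p = 0.0405, edgeR). Aurka, the kinase known to stabilize MYCN protein, fell from 225 ± 42.9 to 98.4 ± 32 CPM (SD, n = 3 each; adjusted p = 0.0498, edgeR).

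Of 16 tested proteins that bind MYC-family mRNAs, 3 rose and 2 fell without 4sU, and 4 of 17 rose and 11 fell in the other libraries. Elavl4, the neuronal HuD protein that binds AU-rich 3′ UTRs, rose from 21.6 ± 8.66 to 1666 ± 235 CPM (SD, n = 3 each; adjusted p = 1.58e-06, edgeR). Tia1 rose by 1.90 ± 0.35 (adjusted p = 0.00538). Lin28a, a pluripotency RNA-binding protein, fell from 986 ± 271 to 12.9 ± 8.07 CPM (SD, n = 3 each; adjusted p = 3.74e-05, edgeR). Igf2bp1, which shields the Myc coding region from decay, fell from 2403 ± 106 to 542 ± 54.1 CPM (SD, n = 3 each; adjusted p = 1.02e-04, edgeR). Lin28a and Elavl4 also mark undifferentiated cells and neurons, the groups whose marker sums shift as given above.

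The 3 genes whose levels followed Mycn most closely over the 16 group means were Cks1b (r = 0.97), Ganab (r = 0.97) and Dbf4 (r = 0.96), by Pearson correlation of log2(CPM + 1) among 12842 3′ UTRs. For Myc they were Has2 (r = 0.88), Aen (r = 0.88) and Grk5 (r = 0.87). The points share both states and the depth gap between them.

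The second question was how fast these mRNAs gained and lost label. A conversion rate is the number of T-to-C conversions per 100 covered T positions. Tests used the 9834 3′ UTRs with at least 1000 covered T positions per library on average. Max had 16415 on average, Mycn 13643, Mga 12042, Mlx 11574, Mycl 11508, Mnt 4625, Mxd1 3862, Mxd3 1494 and Mxd4 1242, and Myc was left out with 655. These are averages over both states. Mycn had a median of 23361 at D0 and 4046 at D6, and Mycl of 4361 and 18396, so the precision of the rates turned with the levels. Mxd3 and Mxd4 were under 1000 in 15 and 20 of the 24 D0 libraries. Copies of 1 molecule are not independent, so intervals on pooled conversions cover counting error only.

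**Figure D3:**
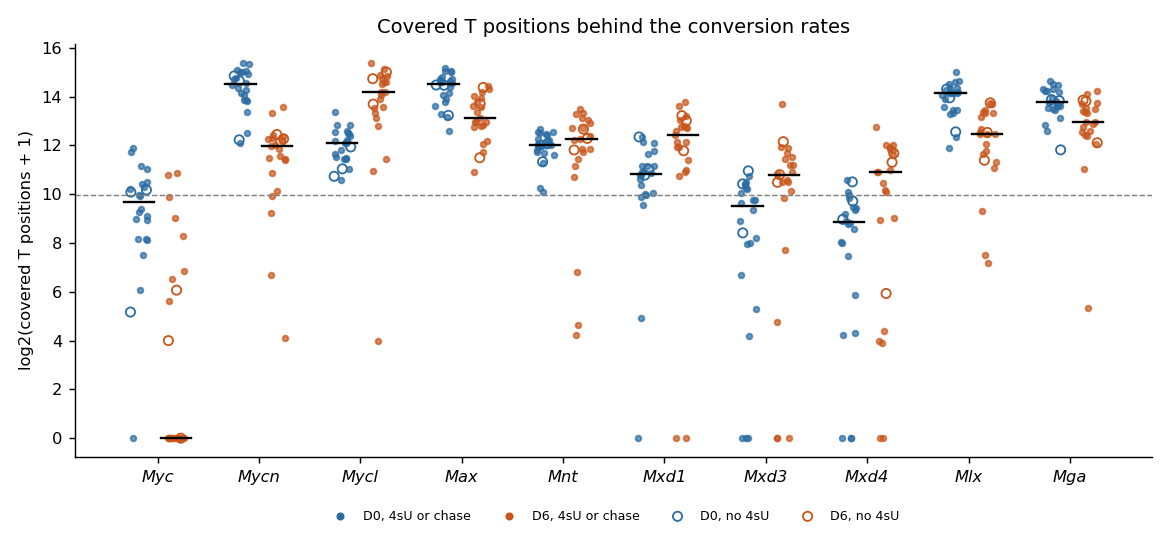
Covered T positions of each 3′ UTR in every library, as log2(covered T positions + 1), at D0 (blue) and D6 (orange), with the dashed line at 1000. Open circles are libraries without 4sU and black bars the median of each state. Myc, Mxd3 and Mxd4 sit under the line in most D0 libraries, while Max, Mlx and Mga sit above it in nearly all libraries.

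At D0 the share of members that took up label was near that of all tested 3′ UTRs. After 9 h of 4sU, 6 of 9 members tested had more conversions than without 4sU at D0, against 64.9% of all tested 3′ UTRs, and 8 of 9 at D6, against 71.6%. Mxd3 and Mxd4 entered the D0 test only through their D6 coverage, with means of 732 and 521 covered T positions at D0, and without them 5 of 7 members passed there. Mycn had 1.54% ± 0.206 (SD, n = 3) converted at D0, from 0.0122% ± 0.0109 without 4sU, with an edgeR adjusted p of 8.93e-04. At D6 its 3 libraries had 2.68%, 5.19% and 10.8% (adjusted p = 9.91e-05). Max had 1.12% ± 0.289 at D0 and 3.82% ± 1.19 at D6 (SD, n = 3 each; adjusted p = 1.24e-04 and 1.83e-05, edgeR). Mycl had 1.41% ± 0.565 at D0 and 5.33% ± 1.02 at D6 (SD, n = 3 each; adjusted p = 7.39e-04 and 1.25e-05, edgeR). No conversion was seen in Mycl without 4sU at D0 in 7713 covered T positions, so that its pooled rate was at least 44.9-fold higher after 9 h, counting 3 conversions over the group as the floor.

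Mxd1 reached 2.41% ± 0.663 at D0 and 4.55% ± 1.05 at D6 (SD, n = 3 each; adjusted p = 0.00453 and 0.0226, edgeR), and at D6 it did not pass without anabolic T0 replicate 39 (0.0824) or in a fit of the 2 groups alone (0.0647). Mga passed at D0 (adjusted p = 0.00650) and not at D6 (adjusted p = 0.0617), where its libraries had 3.36%, 0% and 1.31%. Without D6 anabolic T0 replicate 39, whose rate of 0.384% stood out among the unlabeled libraries, Mga passed at D6 (adjusted p = 0.0151), and without D6 anabolic T9 replicate 53 as well (0.0329). With all libraries it passed by DESeq2 (0.0262). Mxd3 at D0 rested on 7 conversions in 1 library of 103 covered T positions (adjusted p = 0.0464), and without that library its sign turned. It did not pass without D0 anabolic T0 replicate 55 (0.104) or 56 (0.131) either, nor with DESeq2 (0.0849), with a minimum of 100 covered T positions (0.0585) or in a fit of the 2 groups alone (0.159).

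Mnt, Mlx and Mxd4 did not pass at D0 (adjusted p = 0.630, 0.0746 and 0.425, edgeR, with Mlx passing by DESeq2 at 0.0312) and passed at D6 (adjusted p = 0.00132, 0.00164 and 0.00628). Whether the states differ was not tested by that. At D0 without 4sU, Mlx had 0.291%, 0% and 0.419% and Mnt 0.117%, 0.0243% and 0.444%, compared with a rate over all 3′ UTRs of 0.171% ± 0.0329 (SD, n = 3). Mxd4 had 20 of 500 covered T positions converted in 1 unlabeled D0 library and none in both others. For Mnt at D6, with no conversion in 15075 covered T positions without 4sU, the pooled rate was at least 73.5-fold higher after 9 h. For Mxd3 at D6 it was at least 235-fold higher.

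Myc gave too few covered T positions for a test. Its D0 libraries pooled 11 conversions in 4139 covered T positions after 9 h of 4sU and 3 in 2274 without it, a 2.01-fold ratio with a counting interval of 0.532 to 11.2, and all 11 came from 1 library. At T3 of the uptake the D0 libraries had 0.999%, 0.953% and 0.914%, from 59 conversions in 6288 covered T positions. In the D0 chase, conversions were 1 in 3560 covered T positions at the start, 25 in 2263 at T1, 21 in 3094 at T3 and 0 in 2126 at T9. At D6 no library at the start of the chase covered a T position of Myc, so no loss could be read.

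**Figure D4:**
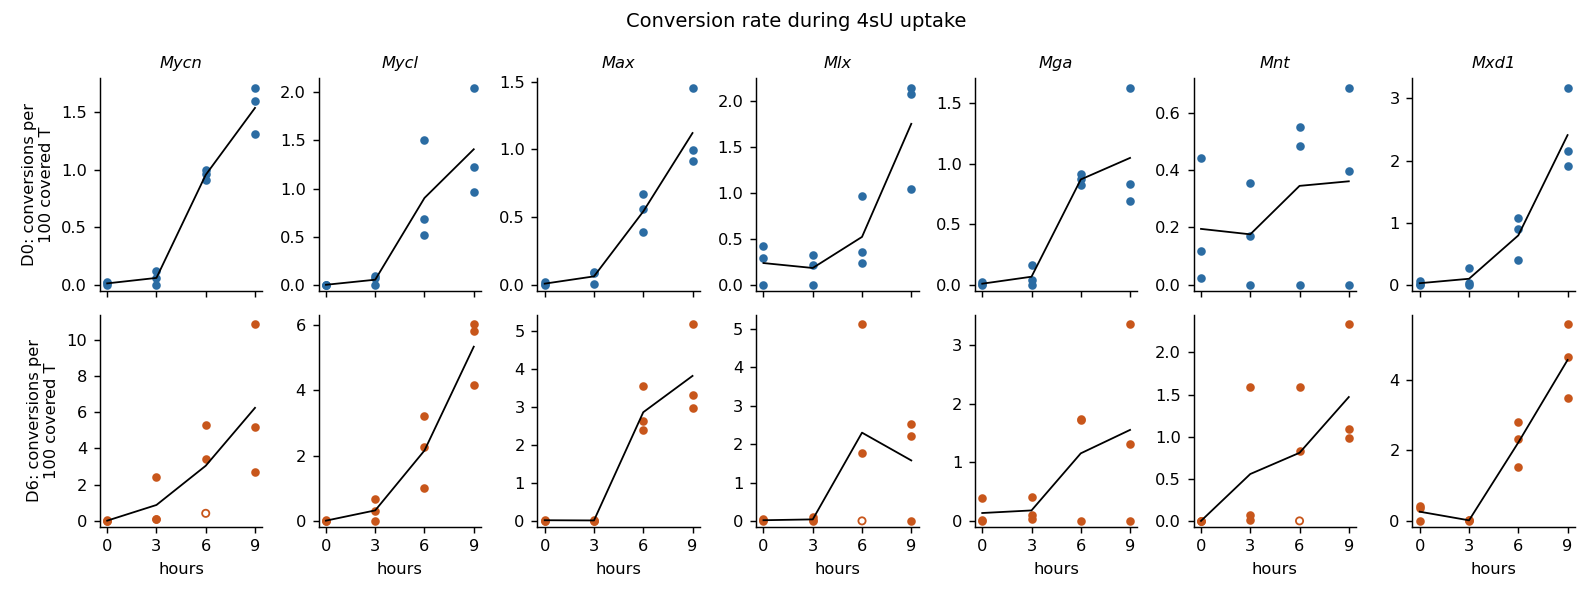
Conversions per 100 covered T positions during uptake of 4sU against the hours given in the study's methods, for 7 members at D0 (blue, top) and D6 (orange, bottom), each panel with its own scale. Points are libraries, open where fewer than 1000 T positions were covered, and lines join the mean of each time point. Mean rates were near those at 0 h at the second time point in most panels and higher than at 0 h at the last, and the mean of Mlx at D6 was lower at 9 h than at 6 h.

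Over 9 h of chase, conversions fell in 3 of 8 members that could be tested at D0 (Mycn, Max and Mga), against 18.3% of all tested 3′ UTRs, and in 5 of 9 at D6 (Mycn, Max, Mga, Mxd1 and Mxd3), against 34.3%. In these 5 genes, the pooled rate after the chase was a small part of the rate at its start. Mxd3 had no conversion at either end of the chase at D0, in 1433 and 2708 covered T positions, and gave no test, and without Mxd4, which was covered by the same minimum at D6 only, the D0 count is 3 of 7.

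Mycn had 1.59%, 2.72% and 1.10% at the start of the chase at D0 and 0.0826%, 0.0116% and 0.0888% after 9 h, with no overlap. On average 3.38% ± 2.38 (SD, n = 3) of its label was left, where the median 3′ UTR kept 17.1%. The log2 change was −4.85 ± 1.51 (adjusted p = 0.0238, edgeR). At D6 Mycn had 3.20%, 3.26% and 9.30% at the start and 0.306%, 0% and 0% after 9 h (−5.36 ± 1.58, adjusted p = 0.0109), and 1.94% ± 3.36 (SD, n = 3) was left, beside a median of 11.4%. At T3 of the D6 chase, neither library had a conversion in 103 and 1871 covered T positions.

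Max had 1.66%, 1.92% and 2.77% at D0 before the chase and 0.0905%, 0.00794% and 0.0920% after 9 h (−5.04 ± 1.29, adjusted p = 0.00827). At D6 it had 6.94%, 7.30% and 1.23% before and 0.710%, 0% and 0.623% after (−3.53 ± 1.20, adjusted p = 0.0223), while the shallow T3 replicate 14 between them had 9.24%. The share left was 3.00% ± 2.27 at D0 and 8.61% ± 7.50 at D6 (SD, n = 3 each). Mga had 0.675%, 1.55% and 1.04% before and 0.0515%, 0.0241% and 0.0117% after at D0 (−5.17 ± 1.86, adjusted p = 0.0437), and 3.89%, 2.82% and 2.12% before and 0.316%, 0% and 0% after at D6 (−4.76 ± 1.81, adjusted p = 0.0381). At D6 the pooled rate of Mga after the chase, 0.152%, was below that without 4sU, 0.173%.

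These calls rested on few libraries. Without 1 library, between 0 and 2 of the members passed at D0 and between 1 and 5 at D6, while the calls over all 3′ UTRs fell from 1803 to between 207 and 1327 at D0 and from 3370 to between 1607 and 2886 at D6. At D0, Mga did not pass without any one of the 6 libraries (edgeR adjusted p up to 0.136), Mycn without any one of the 3 libraries at 9 h (up to 0.106), and Max without catabolic T9 replicate 35 (0.0686). The log2 changes of these 3 genes at D0 stayed between −5.88 and −4.38 in the fits that left out 1 library. At D6 they ran from −12.5 to −4.66 for Mycn, from −11.5 to −4.18 for Mga and from −4.03 to −2.96 for Max. At D6, Max and Mga did not pass without catabolic T0 replicate 7 or 8 or T9 replicate 17 or 18 (adjusted p between 0.0508 and 0.115), Mxd3 without T0 replicate 7 or T9 replicate 17 or 18 (between 0.0533 and 0.0818), and Mycn without T9 replicate 17 (0.0520). Mxd1 passed in all 6 such fits at D6 (at most 0.0246), with log2 changes from −11.0 to −7.81. In a fit of the 2 groups alone, Mycn (0.0523), Max (0.0771) and Mga (0.0881) did not pass at D6. With a minimum of 100 covered T positions, Mga passed in neither state (0.0647 at D0 and 0.0572 at D6).

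Mxd1 at D6 had 6.35%, 7.49% and 6.31% before the chase and 0.0446%, 0% and 0% after it, a 428-fold gap in pooled rates (counting interval 118 to 3536, from 2 conversions after the chase). Its edgeR adjusted p was 0.00278. The pooled rate after the chase, 0.0151%, was below that without 4sU, 0.244%, against which the rate after 15 h was 26.4-fold higher (counting interval 20 to 35.6). At D0 it started with 1.91%, 0% and 0%, the latter pair from 990 and 29 covered T positions, and did not pass (adjusted p = 0.108). Mxd3 at D6 fell from a pooled rate of 4.32% to 0.0525%, with no covered T position in 1 of the 3 libraries at the start (82.2-fold, counting interval 27.2 to 406, adjusted p = 0.0244, edgeR).

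Mycl, Mlx and Mnt did not pass in either state in the edgeR fit of all groups. Mycl had 0.344%, 0.592% and 4.70% before the chase at D0, so that replicate 27 set most of the mean, and DESeq2 called the loss (adjusted p = 0.0160) where edgeR did not (0.0660). At D6 it had 4.61%, 2.72% and 5.64% before and 0.978%, 0.667% and 0.397% after, with no overlap (−2.66 ± 1.29, adjusted p = 0.0891), and it passed with DESeq2 (adjusted p = 0.0378) and in the edgeR fit of the 2 groups alone (0.0325). Its share left was 15.7% ± 6.73 (SD, n = 3). Mlx kept 8.09% ± 6.88 at D0 and 16.4% ± 3.13 at D6 (SD, n = 3 each), with log2 changes of −3.61 ± 1.503 (adjusted p = 0.0730) and −2.64 ± 1.53 (adjusted p = 0.147). The D0 loss of Mlx passed with DESeq2 (0.0134) and in the edgeR fit of the 2 groups alone (0.0227). The D0 value after the chase, 0.132% ± 0.112, was below that without 4sU, 0.237% ± 0.215 (SD, n = 3 each). Mnt kept 17.5% ± 18.2 and 24.8% ± 37.7 (SD, n = 3 each; log2 changes with adjusted p = 0.260 and 0.296, edgeR). For Mnt at D0, too, the rate after the chase, 0.128% on average, was below that without 4sU, 0.195%. Mxd4 at D6 had 8.90%, 2.78% and 0.421% before and 0%, 5% and 14.3% after, the last 2 from 20 and 490 covered T positions.

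No member that could be tested passed for a difference in loss between the states. For the difference of the 9 h loss, 0 of 8 members passed by edgeR, against 0.0203% of all tested 3′ UTRs, and DESeq2 called 0, against 2.29%. By edgeR 0 members had an unadjusted p under 0.05, where 1041 of the 3′ UTRs did. Of the 8, Mxd4 met the coverage minimum at D6 only. It had no conversion in 1086 covered T positions at the start of the D0 chase, so its value cannot show a difference in loss. The 3 genes called in both states had differences, D6 minus D0, of −0.51 ± 1.93 (Mycn), 1.51 ± 1.54 (Max) and 0.42 ± 2.06 (Mga), with standard errors that leave changes of several fold within reach. For the rate after 9 h of uptake over that after 15 h, 0 of 9 members passed by edgeR, 0 had an unadjusted p under 0.05 and DESeq2 called 0, against 0% of all tested 3′ UTRs (606 at an unadjusted p under 0.05, and 54 called by DESeq2). Mxd3 and Mxd4, counted in the 9, met the coverage minimum at D6 only. After 15 h of 4sU at D0 they had no conversion in 1433 and 1086 covered T positions, so their D0 ratio has no denominator. The ratio of 9 h to 15 h was 85.3% ± 11.4 for Mycn and 53% ± 13.7 for Max at D0 (SD, n = 3 each), where the median 3′ UTR had 93.7%. At D6 it was 119% ± 79.6 for Mycn and 73.9% ± 23.0 for Max (SD, n = 3 each), beside a median of 70.9%.

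**Figure D5:**
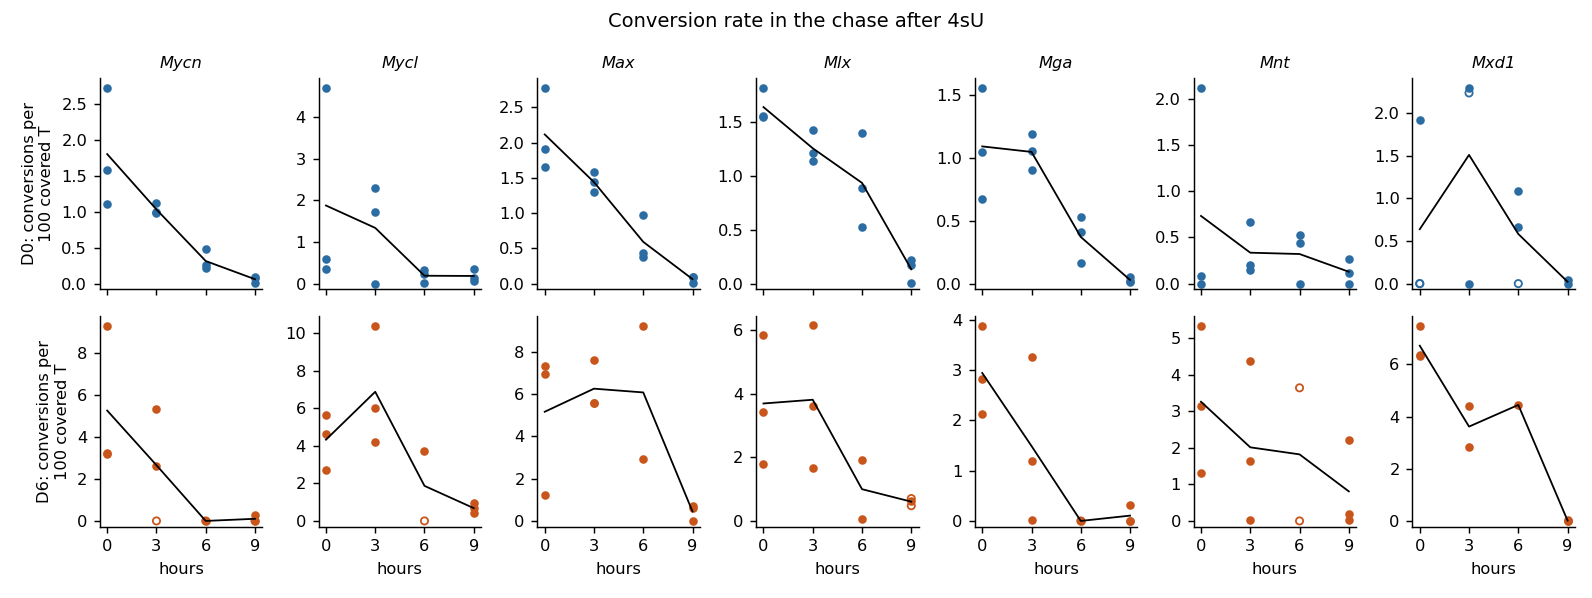
Conversions per 100 covered T positions during the chase against the hours given in the study's methods, for 7 members at D0 (blue, top) and D6 (orange, bottom), each panel with its own scale. Points are libraries, open where fewer than 1000 T positions were covered, and lines join the mean of each time point. Mycn, Max and Mga end near 0 in both states, Mxd1 does at D6, and the D6 points are more spread.

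Half-lives were fitted to the whole chase and uptake courses and kept where R2 was over 0.6. For decay, 4 members were kept at D0, against 14.8% of the 9834 3′ UTRs, and 2 at D6, against 16.7%. At D0, Mycn had a decay half-life of 167 ± 37.7 min, Max of 206 ± 35.4 min, Mga of 269 ± 76.4 min and Mlx of 304 ± 58.2 min (standard errors of the fit), and the median of the 3′ UTRs kept was 281 min. The neighbours in this order lie within their errors. At D6, Mga had 138 ± 50.2 min and Mxd1 201 ± 46.5 min, with a median of 218 min over all kept. The value of Mxd1 was 61.2 min with 0 and 9 h alone and 259 min with the mean of each time point. Mycn at D6 gave 136 ± 64.5 min with an R2 of 0.542 and was not kept.

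With the hours of the sample names in place of those of the methods, the D0 decay half-lives were 73.4 min for Mycn, 102 min for Max, 148 min for Mga and 186 min for Mlx, in the same order. With 0 and 9 h alone that order did not hold, with 103 min for Mga, 107 min for Max, 110 min for Mycn and 149 min for Mlx. With the hours of the sample names, the D6 values were 54.2 min for Mga and 126 min for Mxd1. The medians over all kept were then 203 min at D0 and 136 min at D6. More 3′ UTRs were kept for decay with these hours, 23.3% at D0 and 24.5% at D6, against 14.8% and 16.7% with those of the methods. Which hours are right was not tested. For synthesis, 4 members were kept at D0, against 21.4%, and 3 at D6, against 9.51%. At D0 the synthesis half-life was 236 ± 69.3 min for Mga, 338 ± 62 min for Mycn, 397 ± 95.7 min for Mycl and 682 ± 105 min for Max, beside a median of 422 min. At D6 it was 246 ± 81.8 min for Mycl, 379 ± 77.0 min for Max and 514 ± 97.9 min for Mxd1, beside a median of 380.0 min. With the hours of the sample names, synthesis half-lives were shorter as well, from 120 min (Mga) to 489 min (Max) at D0 and from 148 min (Mycl) to 344 min (Mxd1) at D6. For synthesis, 43.1% of the 3′ UTRs at D0 and 23.4% at D6 were kept with these hours, with medians of 250 and 247 min. Fitted to 0 and 9 h alone, the D0 values were 113 min for Mga, 195 min for Mycn, 270 min for Mycl and 497 min for Max. The D6 values were then 278 min for Max and 330 min for Mxd1, and Mycl was not kept. With the hours of the methods or of the sample names, no half-life was kept for Myc, Mnt, Mxd3 or Mxd4 in either state. In other settings some were kept, namely decay of Mnt in both states and its synthesis at D6 with the mean of each time point, and decay of Mxd3 at D6 (86.3 min) and synthesis of Mnt at D6 with 0 and 9 h alone.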

How the data were processed

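Per the file headers and the study's methods, the authors mapped QuantSeq 3′ reads to mm10 with SLAMdunk 0.3.3, called SNPs, and deposited per 3′ UTR interval the read count, the covered T positions and the T-to-C conversions as whole-number counts. Intervals of 1 mRNA were summed here and mRNAs with the same intervals merged. Names came from RefSeq (28064 of 28190 mRNAs matched).

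Reads were tested with edgeR 4.0.16 (quasi-likelihood, TMM, filterByExpr), with assay and time point as covariates in the libraries with 4sU. Conversions were tested with covered T positions as offset, for 3′ UTRs averaging at least 1000 covered T positions, in 1 fit of 47 libraries and 16 groups. P-values were adjusted by Benjamini-Hochberg over all 3′ UTRs tested in a fit, threshold 0.05. Shares of all 3′ UTRs that passed are shares of those tested. DESeq2 1.42.0 was an alternative. Scripts were tested on simulated data. Half-lives came from a 1-parameter exponential fit by least squares to rates divided by the mean rate after 15 h of 4sU (methods hours), kept with R2 over 0.6 and at most 5000 min. No estimate was taken where the curve fell under 0.001 by the second time point, a limit added after seeing the data. The methods give 15 h of labeling in one place and a shorter time in another. Named were all members, the 2 list genes with the smallest p in each direction without 4sU, and the 3 genes most like Myc and Mycn among 3′ UTRs averaging 1 CPM or more. A gene that this rule names is not reported here. Members and lists were chosen with earlier results of these data known. Sequences came from GENCODE M21 transcripts, whose T counts equalled the deposited T content, and from RefSeq promoters. Myc has no promoter in the table used here.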

Additional observations from a re-analysis of the deposited data

How the results depend on the processing

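No paired analysis was possible because the replicate numbers of the libraries are unique across groups. Of the results for single members, 970 alternatives kept the direction and the side of the threshold. A further 34 lost a call, 28 gained one and 22 turned the sign, counting Mxd4 label loss at D0 without replicate 34, which came to 0. With DESeq2, 2106 3′ UTRs (19.1%) and 2 members passed for reads without 4sU, and 69 (D0) and 80 (D6) for 15 h of 4sU. Label loss at D0 then gave 3238 (32.9%) and 5 members, its difference between states 225, and the ratio of 9 h to 15 h 54. With 1 row per transcript, 2115 passed for reads without 4sU, 10 for 15 h of 4sU at D6, and Max in the other libraries was −0.00676. With any read, 58 (D0) and 33 (D6) passed for 15 h of 4sU. With at least 5000 covered T positions, uptake gave 3981 at D0 and 4692 at D6 (87.8%) with 4 of the 5 members left, loss at D6 3 members (49.3% of all 3′ UTRs) and its difference 1. Fitting the groups of the contrast alone gave 3 members for loss at D6 (31.5% of all) and 28 for its difference. For half-lives at D6, 6 members were kept for decay with 0 and 9 h only, 5 with the mean of each time point, and 7 for synthesis with that mean, where 50.6%, 51.0% and 53.3% of all 3′ UTRs were kept. Max was −0.24 without the shallow libraries, a choice made after seeing the data. Subtracting the unlabeled rate moved the share left to −12.4% (Mnt, D0), −7.47% (Mlx, D0), −3.80% (Mxd1, D6) and −1.04% (Mga, D6). The cause was not tested, except that higher minimums leave fewer genes.

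Leaving out 1 library, reads without 4sU gave 793 to 1456 3′ UTRs and 1 to 2 members, and Max −0.42 to 0.16 (−0.17 to 0.12 in the other libraries). Without 4sU, Mxd3 then ran from 0.89 to 2.36 and Mxd4 from 0.99 to 2.41, and neither passed. For 15 h of 4sU the counts ran from 3 to 15 at D0 and from 0 to 6 at D6. Uptake at D0 ran from −3.48 to 7.92 for Mxd3 and from −3.15 to 5.19 for Mxd4. Loss at D0 gave 207 to 1327 and 0 to 2 members, with Mnt from −3.63 to 2.02, Mxd1 from −8.06 to 3.24 and Mxd4 from 0 to 4.86. Loss at D6 gave 1607 to 2886 and 1 to 5 members, with Mxd4 from −1.75 to 2.02. The difference in loss gave 0 to 6, with Mycn from −7.65 to 0.19 and Mga from −6.28 to 1.13, and the ratio of 9 h to 15 h for Mycn ran from −0.19 to 1.18. Of the members, Myc, Mxd3 and Mxd4 had the fewest covered T positions per library on average (655, 1494 and 1242), and Myc was left out of the label tests.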
